A study of Saccharomyces cerevisiae with 12 samples.

Results

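The share of each gene's RNA that was newly made was measured in budding yeast (Saccharomyces cerevisiae) cells that had not been depleted of any protein. In SLAM-seq, cells take up 4-thiouracil (4tU), a uracil analogue that RNA polymerases build into new transcripts. After treatment of the RNA with iodoacetamide, the modified bases are copied as C instead of T, so a sequencing read that carries T>C conversions marks new RNA. The labelled share used here is the percent of a gene's reads that are T>C reads, defined as reads with at least 2 T>C conversions. Genes were kept when they had at least 200 reads in each of 3 libraries, and 3321 of the 6465 S. cerevisiae intervals met this rule, 3257 of them protein-coding.

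The 3 libraries, A to C, were biological replicates of strain RDY73, grown in YPD, given DMSO for 25 min and then 5 mM 4tU for 4 min. RDY73 expresses the auxin receptor OsTIR1 (pGPD1-OsTIR1:HIS3) and carries degron tags on both BET genes, BDF1-3xV5-mAID::URA3 and BDF2-3xV5-mAID::KanMX. No auxin was given, but every culture carried the tags and the receptor. A second strain, RDY388, has the same alleles and in addition the plasmid pJR15:TRP1, which makes extra ET (extra-terminal) domain, a part of Bdf1; its 3 DMSO libraries were used only for comparison. All cultures came from single engineered strains, so differences between yeast isolates were not addressed.

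A message that is made and destroyed quickly is replaced within minutes, whereas a stable message is mostly old. At a steady RNA level the new share after a short pulse therefore follows the turnover of the message, and it gives a guide to relative half-lives without blocking transcription. A gene that is being switched on also has a high share, because its RNA is young whatever its stability. A single labelling time does not separate these, and which of them applies to a gene was not tested. In yeast, messages for ribosomal proteins and glycolytic enzymes are known to be stable, and those for many regulators to be short-lived.

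Libraries A, B and C held 10127782, 10807764 and 9050357 S. cerevisiae reads, of which 2.67%, 2.69% and 2.60% were T>C reads. The 3321 genes accounted for 97.3% of the reads and 91.2% of the T>C reads. Markers of the α mating type were read in every library (STE3 with 1193 to 1543 reads). Those of the a mating type had few reads (STE2 with 6 to 19 and MFA1, the highest, with 54 to 76). No unlabelled library was analysed here, so T>C reads that come from sequencing errors were not subtracted. The lowest share of any gene, 0.128% for the mitochondrial 15S_RRNA, is also the most that such errors can amount to in that interval.

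The median gene had a labelled share of 4.87% ± 0.195 (SD, n = 3 libraries), with 4.70%, 5.08% and 4.84% in A, B and C. From the 5th to the 95th percentile of genes the mean share ran from 1.18% to 12.98%, a 10.97-fold range. It was far wider than the spread between libraries. The median coefficient of variation of a gene over the 3 libraries was 16.6%, falling to 11.1% among the 985 genes with at least 1000 reads in each library and rising to 23.8% among the 728 genes with 200 to 299. Each gene was compared with the median gene by edgeR's quasi-likelihood test, with p-values adjusted by the Benjamini-Hochberg method over all 3321 genes and a threshold of 0.05. The share was above that of the median gene for 1086 genes (32.7%) and below it for 1138 (34.3%). Of the called genes, 456 above and 627 below had an estimated difference of at least 2-fold in the ratio of T>C reads to other reads. The test itself was against no difference. The remaining 1097 genes were not called. Counts of called genes in the classes below are to be read against the 32.7% above and 34.3% below over all genes.

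**Figure D1:**
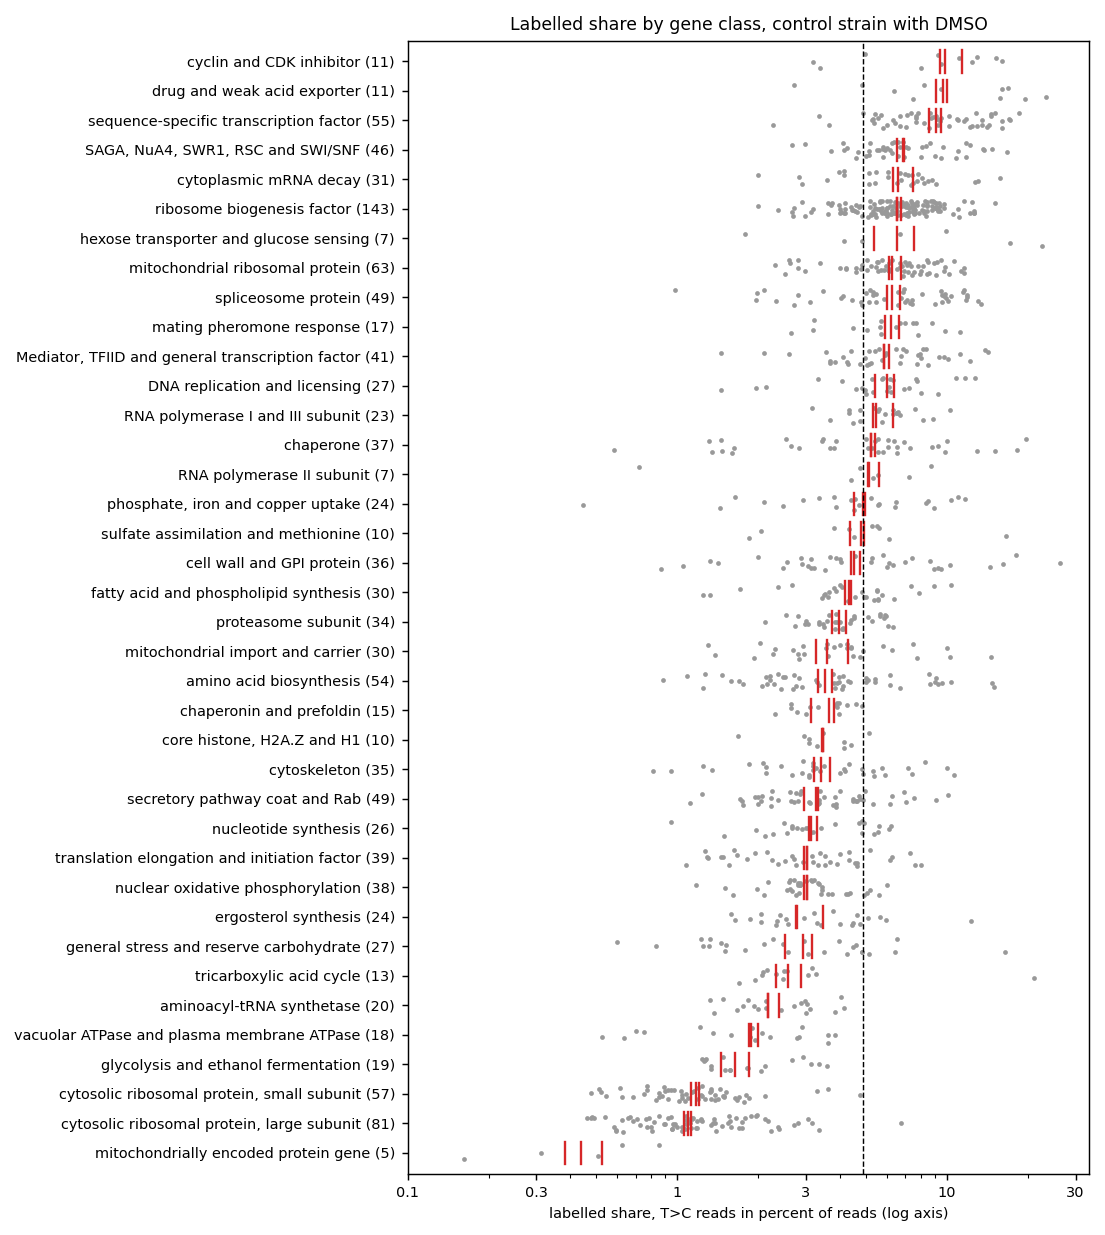
Mean labelled share of each gene (grey points, log axis in percent of reads) in 38 gene classes, with the number of genes in brackets; the 3 red ticks of a class are its medians in libraries A, B and C and the dashed line is the median gene at 4.87%. Classes run from mitochondrially encoded genes and ribosomal proteins at the bottom to transcription factors, exporters and cyclins at the top, and the ticks of most classes lie close together compared with the spread of their genes.

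Messages for the proteins of the cytosolic ribosome had the lowest shares of any large nuclear class. Of 138 genes, 136 were called below the median gene, 1 above it and 1 was not called, against 34.3% below among all genes. The median was 1.09% ± 0.0331 (SD, n = 3) for the 81 genes of the large subunit, 4.47-fold below the median gene, and 1.17% ± 0.0384 for the 57 of the small subunit, 4.17-fold below. These 138 genes gave 43.0% of all reads but 15.9% of the T>C reads. RPL36B, a large-subunit protein on chrXVI:75449-76239, had 0.442%, 0.483% and 0.467% in A, B and C, which lie close together. Its ratio of T>C reads to other reads was 11.2-fold below that of the median gene (log2 difference -3.48, SE 0.076, edgeR adjusted p = 1.12e-22). RPL29, RPL39 and RPL34B had mean shares of 0.490%, 0.484% and 0.477%. The exception was RPL22B, a minor copy of a large-subunit gene, with 6.83%, 6.42% and 6.99%, all above the median gene of the same library (adjusted p = 0.000122).

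RPL22B is one of a pair, and many ribosomal protein genes of yeast exist as such duplicated pairs that encode the same or nearly the same protein. Among the 59 pairs with both copies measured, the copy with fewer reads had the higher share in all 3 libraries in 41 pairs, and the copy with more reads in 8. The difference went with how unequal the copies were. Where reads differed by less than 1.5-fold (19 pairs) the median ratio of the minor to the major share was 0.984. It was 1.503 in the 29 pairs 1.5- to 4-fold apart and 2.59 in the 11 pairs at least 4-fold apart, in which the minor copy was higher in all 3 libraries in 10. RPL22B stood at 6.75% ± 0.294 against 1.65% ± 0.0784 for RPL22A, with 13.2-fold fewer reads. RPS9A, of the small subunit, stood at 4.75% ± 0.981 against 1.20% ± 0.0665 for RPS9B. RPL15B had 68.2-fold fewer reads than RPL15A and a share of 3.35% ± 1.25 against 1.36% ± 0.0429. The copy with more reads was higher in all 3 libraries in 6 of the 19 pairs of similar abundance and in 2 of the 29 pairs 1.5- to 4-fold apart (RPL1 and RPL26). The most unequal of these in share was a pair of similar abundance: RPS8A, the copy with fewer reads, had 0.971% ± 0.189 against 3.29% ± 0.0703 for RPS8B, and up to 8.40% of reads in that pair mapped to more than one place. Reads and share of a copy share the read count, so a ratio of one against the other is a description only.

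**Figure D2:**
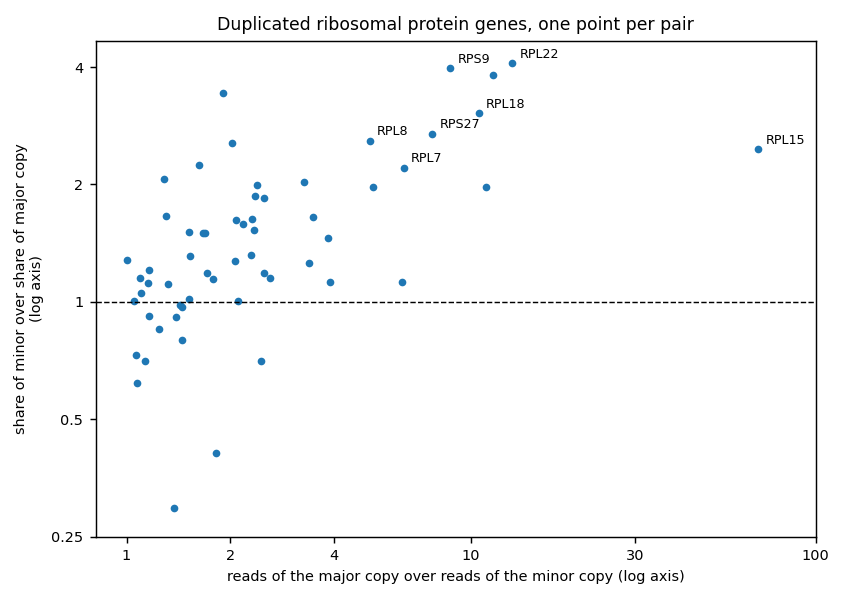
Each point is 1 of 59 pairs of duplicated ribosomal protein genes, with the reads of the copy with more reads over those of the other (x axis, log) and the labelled share of the copy with fewer reads over that of the other (y axis, log); the dashed line marks equal shares. Pairs of similar abundance scatter on both sides of the line, and 10 of the 11 pairs at least 4-fold apart had the higher share in the minor copy in all 3 libraries.

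Other parts of the translation machinery were also low, but less so. All but 1 of 20 aminoacyl-tRNA synthetases, which load amino acids onto tRNAs, were called below the median gene, with a class median of 2.24% ± 0.130. Translation elongation and initiation factors had a median of 3.01% ± 0.0432, with 28 of 39 below and 4 above. Within them TIF11, the initiation factor eIF1A, stood at 1.27% ± 0.144 and NIP1, a subunit of eIF3, at 6.26% ± 0.776.

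The factors that assemble ribosomes lay on the other side of the median gene. Ribosome biogenesis factors work in the nucleolus on ribosomal RNA and its precursors. Of 143 such genes, 83 were called above the median gene and 17 below, with a class median of 6.60% ± 0.130. NOP8, a factor of large-subunit assembly, stood at 12.6% ± 1.69. At the low end, NOP56, a core protein of the small nucleolar RNPs that modify ribosomal RNA, stood at 2.35% ± 0.194. All 8 core proteins of these particles (NOP1, NOP56, NOP58, SNU13, CBF5, GAR1, NHP2 and NOP10) were called below the median gene, from 2.35% to 3.62%; this list was drawn up after NOP56 had been seen. Subunits of RNA polymerases I and III, which transcribe ribosomal RNA and tRNA, had a median of 5.70% ± 0.532, with 10 of 23 above and 2 below. That was 43.5% and 8.70%, against 32.7% and 34.3% over all genes.

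Most genes of central carbon metabolism were low. All 19 genes of glycolysis and ethanol fermentation were called below the median gene, with a class median of 1.65% ± 0.200, 2.97-fold below. TDH3, the main glyceraldehyde-3-phosphate dehydrogenase, had 1.299%, 1.22% and 1.18% in A, B and C, and GPM1, phosphoglycerate mutase, had a mean of 1.26% ± 0.0372. PGK1 and ADH1, often used as examples of long-lived messages, stood at 2.05% ± 0.198 and 2.11% ± 0.0963. The least abundant isozyme, TDH1, was the highest of the class at 3.58% ± 0.268. In the tricarboxylic acid cycle 12 of 13 genes were below, between 1.69% for FUM1, fumarase, and 3.27% for IDH1, a subunit of isocitrate dehydrogenase. The 13th was CIT2, the peroxisomal citrate synthase, with 19.8%, 23.5% and 19.6%, all above every other gene of that list. CIT2 is known as the standard target of the retrograde pathway, by which yeast respond to mitochondrial dysfunction.

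Sugar uptake differed from sugar breakdown. Only 7 of 26 listed genes of hexose transport and glucose sensing had 200 reads, and they ranged widely. HXT1, a low-affinity transporter that is induced by high glucose, had 16.3%, 20.1% and 15.0%. HXT7, a high-affinity transporter that glucose represses, had a mean of 1.78% ± 0.491. HXT3, also of low affinity, lay between at 6.69% ± 1.83.

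Nuclear genes for mitochondria fell into groups that differed. Oxidative phosphorylation had a median of 3.01% ± 0.0479, with 29 of 38 genes below and none above the median gene. Mitochondrial import and carrier proteins had 3.72% ± 0.533, with 15 of 30 below and 5 above. Proteins of the mitochondrial ribosome had 6.37% ± 0.338, with 29 of 63 above and 8 below. MRPL32 and MRPL22, of its large subunit, stood highest among those with 500 reads, at 11.6% ± 0.450 and 10.6% ± 1.21.

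RNA-binding proteins that control yeast mRNA stability recognise short motifs in 3′ untranslated regions, and the groups above differ in the motifs they carry. Puf3, which binds messages for mitochondrial proteins and is known to promote their decay, was searched as TGTANATA, Puf4 as TGTANANTA and Cth2, which acts when iron is scarce, as TATTTAT, in the 250 bases after each coding region. N stands for any base, the Puf3 and Puf4 patterns cannot begin at the same base, and a Cth2 pattern can overlap either. Among 5994 nuclear coding genes, 15.2% held the Puf3 pattern on the transcribed strand and 14.6% on the other strand. Among the mitochondrial ribosomal proteins 62 of 63 held it on the transcribed strand and 9 on the other. The 3 sites below, in R64 coordinates, belong to genes of that group with high shares, and the capitals mark the pattern.
MRPL32 (chrIII:119206-119235, + strand): aaacttaagccTGTATATAgaaacttaatt
MRPL22 (chrXIV:303532-303561, - strand): tattgtgattcTGTAAATAacaactagttt
MRPL25 (chrVII:637008-637037, - strand): atgtctaatcaTGTAAATAattttgtgata
They begin 46, 136 and 78 bases after the coding region, and the mean shares of the 3 genes were 11.6%, 10.6% and 11.6%. Low shares also occurred among the 62 carriers: 28 were called above the median gene and 8 below. RSM19, a carrier and the lowest gene of the group, stood at 2.31%. Because nearly every gene of the group carries the pattern, carriers and non-carriers could not be compared within it. Over all other coding genes outside both ribosomal protein groups, the 473 with the pattern had a median share of 4.88% ± 0.354. The 2568 without it had 5.11% ± 0.169. Sorted by the other strand, the same genes had 4.90% ± 0.211 with the pattern and 5.12% ± 0.196 without it. The difference within each library was not computed.

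The Puf4 pattern was on the transcribed strand of 7.97% of coding genes but in 69 of 143 ribosome biogenesis factors, and on the other strand of 13. Carriers in that group had a median share of 5.99% ± 0.168 and the 74 genes without the pattern 7.25% ± 0.286, with 13 carriers and 4 others called below the median gene. Both kinds stood above the median gene. Examples from the top and the bottom of the carriers are RRP9, a protein of the U3 particle, and NOP58, of the snoRNP core, with the pattern in capitals.
RRP9 (chrXVI:804179-804208, + strand): aatgtatctttTGTAAAATAtctaaaaaaa
NOP58 (chrXV:896684-896713, - strand): attccataatcTGTAAATTAgtgctgtacg
Their mean shares were 12.4% and 2.70%, so a site of this kind stood in messages of either sort. Over the coding genes outside both ribosomal protein groups, which include these biogenesis factors, carriers had 5.24% ± 0.262 and the rest 5.05% ± 0.182. With the Puf4 pattern on the other strand the values were much the same, 5.30% ± 0.181 with it and 5.06% ± 0.201 without. The Cth2 pattern was in 21 of 38 oxidative phosphorylation genes against 15.4% of coding genes, and the carriers had 3.31% ± 0.202 against 2.78% ± 0.182 for the 17 others. Over the coding genes outside both ribosomal protein groups, oxidative phosphorylation included, it went the other way. There the 532 carriers had 4.81% ± 0.209 and the rest 5.13% ± 0.203. With the Cth2 pattern on the other strand the values were 5.16% ± 0.188 with it and 5.06% ± 0.197 without. A match of letters does not show binding.

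Regulators of transcription and the cell cycle had medians well above the median gene. Among 55 sequence-specific transcription factors with 200 reads, of 99 listed, 42 were called above the median gene and 2 below, and the class median was 9.06% ± 0.435. CIN5, a bZIP factor of the Yap family, and ROX1, a repressor of hypoxic genes, stood at 18.5% ± 1.06 and 17.2% ± 1.90. The 2 below were HAC1, the factor of the unfolded protein response, at 2.26% ± 0.186, and PHO4, the factor of phosphate starvation, at 3.36% ± 0.271. HAC1 messenger RNA is known to be stored untranslated until it is spliced. GCN4, whose control is mainly translational, had 6.003%, 5.71% and 4.99% and was not called. Among 11 of 20 cyclins and inhibitors of cyclin-dependent kinase the median was 10.2% ± 1.05, with 8 above and 2 below. CLN3, the G1 cyclin that starts the cycle, had 14.3%, 17.1% and 16.5%, and CLN2, which acts after it, had 9.53%, 10.7% and 8.32%. The 2 below were CKS1 and CDC28, the constant partner and the kinase itself, at 3.20% and 3.39%.

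Coactivators and the general machinery were less extreme. The complexes SAGA, NuA4, SWR1, RSC and SWI/SNF, which modify or move nucleosomes, had a median of 6.79% ± 0.218, with 22 of 46 above and 2 below. Mediator, TFIID and the general factors had 5.94% ± 0.145, with 17 of 41 above and 5 below, and their log2 ratio to the median gene went from 0.28 to 0.005 over the 19 genes in the middle range of covered Ts per read. TAF11, a TFIID subunit, stood at 14.2% ± 0.640, whereas RNA polymerase II subunits centred on 5.27% ± 0.275. BDF1 and BDF2, which carry the degrons here, had 6.89% ± 1.37 and 7.16% ± 0.604. Factors of cytoplasmic mRNA decay had 6.79% ± 0.612, with MOT2, a Ccr4-Not subunit, at 12.7% ± 1.19 and XRN1, the 5′ exonuclease, at 2.83% ± 0.172.

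**Figure D3:**
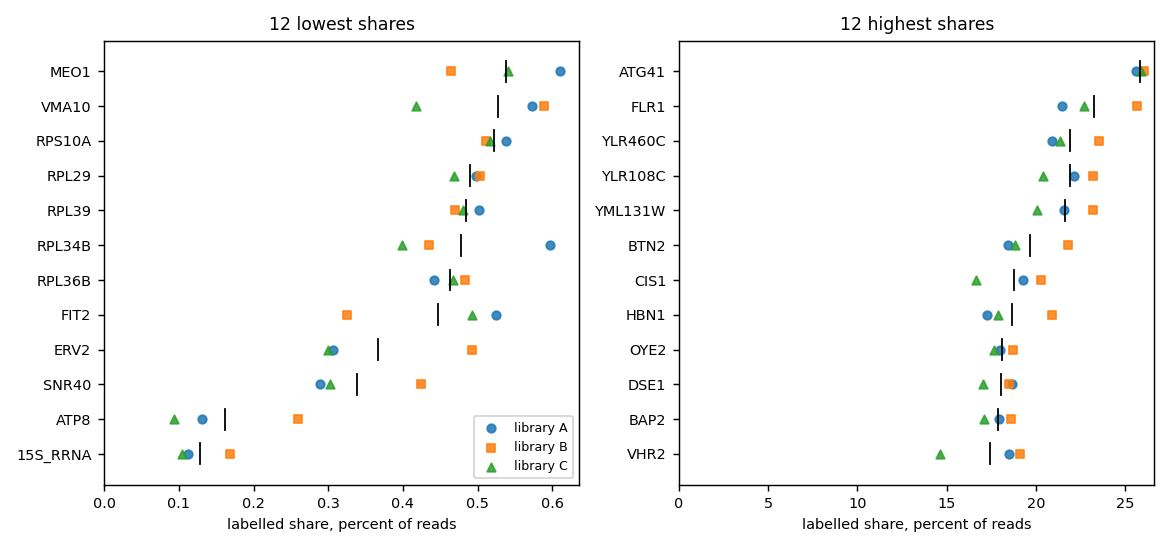
Labelled share in percent of reads in libraries A, B and C (symbols) and their mean (bar) for the 12 lowest (left) and 12 highest (right) genes among those with at least 1000 reads in each library and no same-strand overlap; the x axes start at 0 and differ in scale. The lowest genes lie between 0.128% and 0.539% and the highest between 17.4% and 25.9%.

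The 12 highest genes with at least 1000 reads in each library and no overlap with a neighbour ranged from 17.4% to 25.9%. ATG41, an autophagy gene on chrXVI:74059-74719, led with 25.6%, 26.1% and 25.9%. Its ratio of T>C reads to other reads was 6.69-fold above that of the median gene (log2 difference 2.74, SE 0.086, edgeR adjusted p = 6.73e-20). FLR1, an exporter of drugs and fungicides on chrII:252313-254209, had 21.5%, 25.6% and 22.7%. OYE2, an NADPH oxidoreductase, had 17.97%, 18.7% and 17.6% from 11406, 11198 and 9258 reads, the most of the 12. BTN2, which sequesters misfolded proteins, and BAP2, a permease of branched-chain amino acids, stood at 19.7% ± 1.84 and 17.9% ± 0.755. HBN1, related to nitroreductases, and the uncharacterised YML131W, YLR460C and YLR108C stood between 18.7% and 21.9%. The 3 libraries of each of these genes lay above the 95th percentile of all genes (12.98%).

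Several of these genes are known targets of Yap1, the factor that answers oxidants and electrophiles. A list of 19 established Yap1 targets was therefore drawn up after the values had been seen, and it is a description only. All 19 had 200 reads, 16 were called above the median gene and 3 below, and their median was 11.8% ± 0.584, 2.41-fold above. The highest were FLR1, the nitroreductase-like FRM2 at 22.8% ± 2.31, the exporter ATR1 at 19.5% ± 0.949, OYE3 at 18.9% ± 1.69, HBN1 and OYE2. The glutathione and thioredoxin systems lay next: GSH1, which makes the first step of glutathione, stood at 16.4% ± 1.22, TRR1, thioredoxin reductase, at 11.8% ± 0.584, and TRX2, a cytosolic thioredoxin, at 9.46% ± 0.573. The 3 below were the abundant peroxidases TSA1 at 3.09% ± 0.110 and AHP1 at 2.84% ± 0.169, and GSH2 at 3.17% ± 0.265. Cultures without 4tU were not analysed here, so a response to the label itself, to the DMSO or to handling cannot be told apart from fast turnover in growing cells. Exporters of drugs and weak acids overlapped with this list: 8 of 11 were called above and 1 below, with SNQ2 at 16.9% ± 0.350 and PDR5 at 9.53% ± 0.555.

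Proteins of the cell wall spanned nearly the whole range. The class as a whole (4.56% ± 0.186) was near the median gene, with 13 of 36 genes called above and 17 below. The share above, 36.1%, was near the 32.7% over all genes, and the share below was 47.2% against 34.3%. SCW11, a glucanase of the cell wall, had 26.9%, 25.2% and 26.5%, and DSE1 stood at 18.05% ± 0.902. CWP2 and CCW12, abundant mannoproteins, stood at 1.05% ± 0.0518 and 1.33% ± 0.0503.

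Chaperones ranged widely. Of 37 genes, 14 were called above and 14 below (37.8% each way, near the 32.7% and 34.3% over all genes), and the class median was 5.31% ± 0.107 (log2 ratio to the median gene 0.12, or -0.27 without overlapping intervals). The chaperones SSB1, SSB2, ZUO1 and SSZ1, which work on the ribosome, were called below the median gene, with SSB1 at 1.59% ± 0.117 and SSB2 at 1.35% ± 0.206, and with ZUO1 and SSZ1 at 1.46% and 1.62%. Among those called above it, FES1, a nucleotide exchange factor, stood at 15.1% ± 1.73, SIS1, a J-protein, at 10.0%, and HSP104, a disaggregase, at 6.54% ± 0.685. HSP82, the inducible Hsp90, had 8.43%, 9.29% and 8.79% and HSC82, its constitutive twin, 3.77%, 4.03% and 3.68%, with no overlap between them. General stress and reserve carbohydrate genes were low as a class, at 2.86% ± 0.329, with HSP12, a membrane stress protein, at 0.596% ± 0.00450. GRE2, a methylglyoxal reductase of that list, was high at 16.5% ± 1.01.

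Structural and housekeeping classes were below the median gene. The vacuolar and plasma membrane ATPases had 1.91% ± 0.0723, with 17 of 18 below and none above, and VMA10, a stator subunit, had 0.573%, 0.589% and 0.418%. Core histones, H2A.Z and H1 had 3.45% ± 0.0153, with 8 of 10 below and none above; core histone messages are made mainly in S phase, and the value is an average over cells of all phases. HTB1, an H2B gene, had 3.02%, 2.90% and 2.95%. Cytoskeletal genes had 3.43% ± 0.226, with ACT1, actin, at 2.93% ± 0.0994. Proteasome subunits had 3.99% ± 0.232, with 18 of 34 below and 3 above (log2 ratio to the median gene -0.29, or 0.11 with a minimum of 500 reads). Ergosterol synthesis had 3.00% ± 0.408, with ERG5, the C-22 desaturase, alone above at 12.2% ± 1.53. In amino acid synthesis, 28 of 54 genes were below and 11 above, from GDH1, glutamate dehydrogenase, at 0.887% ± 0.130 to GLY1, threonine aldolase, at 14.9% ± 0.412.

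RNA of the mitochondrial chromosome had the lowest shares of all. All 17 intervals with 200 reads were called below the median gene, with a median of 0.287% ± 0.0288, 17.0-fold below. The 15S_RRNA had 0.112%, 0.168% and 0.104%, ATP8, an ATP synthase subunit, 0.132%, 0.260% and 0.0931%, and OLI1, subunit c of that enzyme, 1.08%, 0.789% and 0.684%. Mitochondrial RNA is made by its own polymerase, and how far 4tU reaches it within 4 min was not tested. Several of these intervals overlap, since introns of COX1 and COB are listed as genes of their own, so the 17 are not independent. On the ribosomal DNA the 25S intervals had 0.729% and 0.908%. The 18S intervals had 14.8% and 16.7% and the external spacer ETS1-2 had 14.7% ± 1.26. The spacers are cut out and destroyed as rRNA matures. Only 1 of the 13 ribosomal DNA intervals with 200 reads had no same-strand overlap and at least 20 covered Ts per read. Whether reads of the 18S intervals come from 18S or from bases beyond its 3′ end was not tested. Ribosomal RNA has no long poly(A) tail, and what fraction of it the reads of these 3′ libraries represent was not tested. SRG1, a noncoding RNA transcribed across the promoter of SER3, had the highest share of all, 31.7%, 32.1% and 32.5%, and 327 bp of its interval are shared with SER3.

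**Figure D4:**
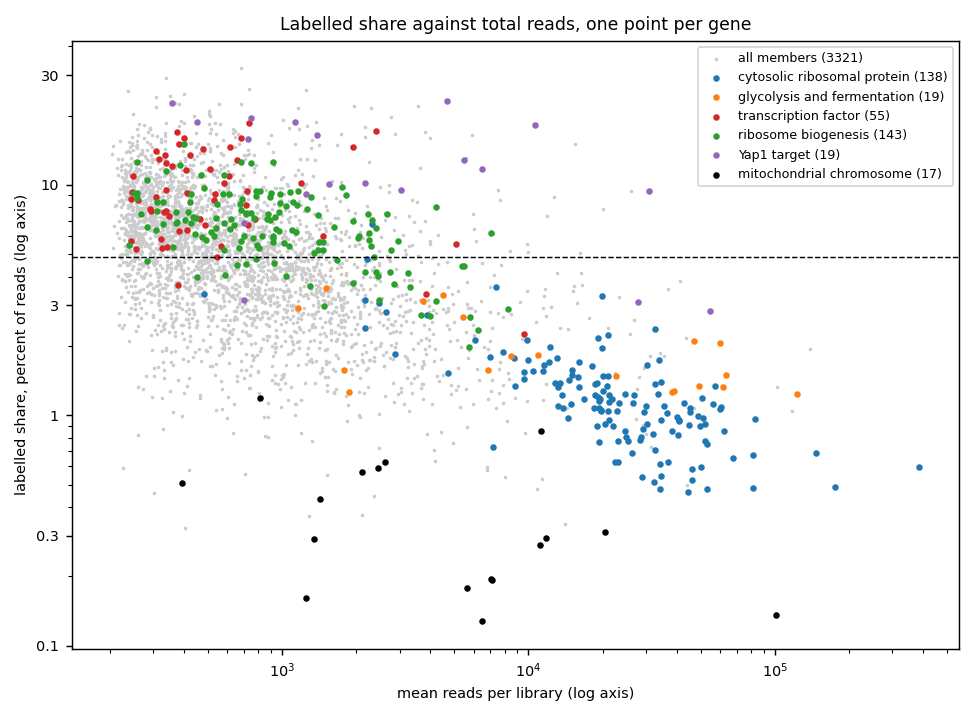
Mean labelled share (y axis, percent of reads, log) against mean reads per library (x axis, log), one point per gene, with selected classes in colour and the median gene dashed. Shares fall from left to right, ribosomal proteins lie at the lower right, and of the Yap1 targets, a list drawn up after the values had been seen, 16 lie above the line and 3 below.

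Abundant messages had low shares. By quartile of reads, from the least to the most abundant genes, the median share was 6.99% ± 0.276, 5.84% ± 0.114, 4.53% ± 0.178 and 2.58% ± 0.0818. Without the ribosomal protein genes and the mitochondrial chromosome the quartiles still ran from 7.01% to 3.21%. Across the 3321 genes Spearman's rho of share and reads was -0.52, with reads entering both measures and no p given. Because of this relation the minimum of 200 reads favours genes of low share: the 1109 intervals with 100 to 199 reads in their lowest library had a median of 8.09%. The members just above the limit (FAU1, JHD2 and GYL1, with 200 reads) had mean shares of 4.48% to 5.31%, and the intervals just under it (ATM1, BUD32 and NPL4, with 199) had 5.01% to 5.502%.

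Longer intervals had higher shares, from 3.61% ± 0.126 in the shortest quartile to 5.85% ± 0.135 in the longest. The number of T bases in an interval, on which a conversion can fall, gave 3.75% to 5.78% by quartile, but the T bases covered per read, which bear on the chance of a conversion in a read of 3′ libraries, did not order the genes (4.87%, 5.19%, 4.81% and 4.70%, rho of -0.0023). The percent of T in an interval went the other way, from 5.51% in the lowest to 3.97% in the highest quartile. Counting conversions per covered T in place of reads ranked the genes nearly the same (rho of 0.958). Among coding genes other than ribosomal proteins, the 109 with an intron had a median of 3.00% ± 0.157, with 62 below and 16 above the median gene. The 2995 without had 5.19% ± 0.205. Those with an intron also had more reads (median 880 against 576), and the contrast was not adjusted for reads. Among ribosomal protein genes those with and without an intron lay close together: 1.10% ± 0.0471 for the 90 with one and 1.17% ± 0.0486 for the 48 without. Splicing of the intron was not measured in these 3′ libraries.

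The DMSO libraries of the ET strain, which took no part in choosing the 3321 genes, were fitted in the same way, and the strains were compared over genes that had 200 reads in both. The median gene there had 5.70% ± 0.554. Of 3248 genes with 200 reads in every library of both groups, 1054 were called above the median gene in RDY73 and 1079 in RDY388, with 924 in common (87.7% and 85.6% of the lists). Below it were 1132 and 1219, with 1054 in common (93.1% and 86.5%). A call in the opposite direction was made for 1 gene of each list. Over the 38 classes the log2 ratio of the class median to the median gene differed by a median of 0.07 between strains. Of these classes, 35 kept their sign. The others were chaperones (0.12 in RDY73 and -0.24 in RDY388), RNA polymerase II subunits (0.11 and -0.029) and cell wall proteins (-0.10 and 0.040). Chaperones had the largest difference, 0.37.

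**Figure D5:**
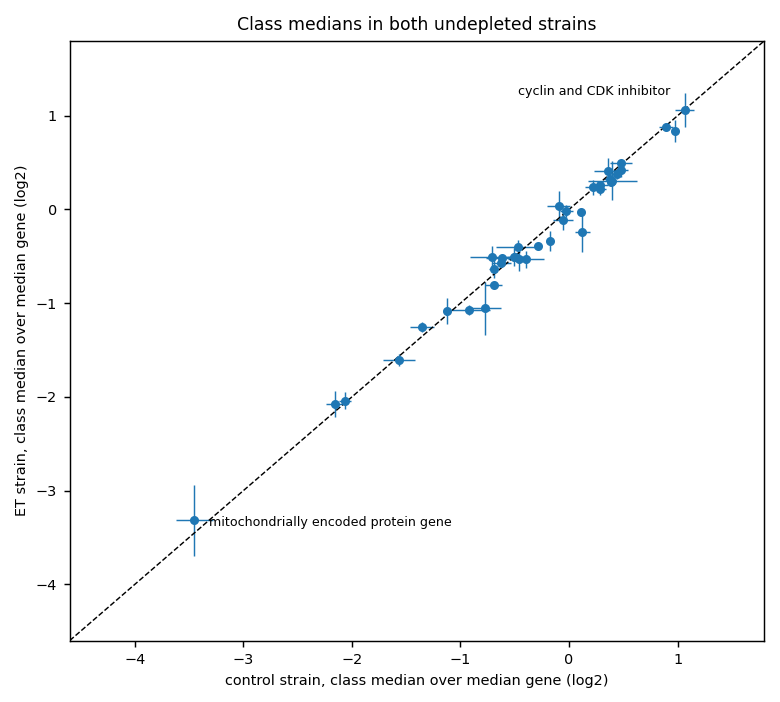
Log2 ratio of the class median to the median gene in the control strain (x axis) and the ET strain (y axis), both with DMSO, for 38 classes; bars are SD over 3 libraries and the dashed line marks equality. Points lie along the line from mitochondrially encoded genes to cyclins, and the largest gap was 0.37.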

How the data were processed

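The S. cerevisiae tables of the 3 DMSO libraries of RDY73 and, for comparison, of RDY388 were used. The authors trimmed reads with fastp 0.23.2 and bbduk and ran SLAM-DUNK 0.4.3 against R64. The deposited tables hold counts, not normalized, of all reads, of T>C reads (at least 2 conversions), of multimapping reads, and of T bases covered and converted, for 6465 gene intervals. Of these, 6460 reached 250 bp beyond the 3′ end of the locus, so neighbours on one strand can share reads: 597 of the 3321 members overlapped another interval. Conversions and covered Ts count only bases inside the interval, and 173 members had under 20 covered Ts per read, as when reads lie at an interval's edge. Since a T>C read needs 2 conversions and not every new base is labelled, shares were read only relative to the median gene. Intron, biotype and sequence came from the RefSeq copy of R64, whose T count matched that of all 6465 intervals.

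T>C reads and other reads of each library were fitted as 6 columns with library as a block (edgeR 4.0.16 in R 4.3.3, glmQLFit and glmQLFTest), with the T>C offset centred so that the median gene had a ratio of 1; tests were two-sided, with Benjamini-Hochberg adjustment over 3321 genes and a threshold of 0.05. The block pairs the T>C and other reads of the same library. Log2 and fold differences of single genes from this fit are of the ratio of T>C to other reads. Those of classes are ratios of median shares. The libraries were biological replicates. Counts were simulated for 3321 genes with a fixed dispersion, 200 genes changed up or down and all others at the median share. Of 50 genes raised 1.5-fold 44.0% were recovered, and of 50 raised 2-fold 92.0% (83.3% and 100% of those with 1000 reads). There were 5 false calls. Recovery of lowered genes was not summarised. In the data far more genes lie away from the median, so these rates need not hold there. A class median is the median share over its members in each library, given as mean ± SD over 3 libraries, with no test of the class. Of 1566 genes in the 38 lists, 306 had under 200 reads. Errors cover the spread between libraries; the use of molecular identifiers is not given in the sources used here.

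Members, gene lists and tests were chosen with earlier results of these data known. Named genes were, among called members with at least 1000 reads per library, at most 10% multimapping reads and no same-strand overlap, the 12 highest and 12 lowest; in each class up to 2 highest and 2 lowest with at least 500 reads; and PGK1, ADH1, TDH3, ACT1, STE3, CLN2, HAC1, GCN4, HTB1, SSA4, BDF1 and BDF2. All other genes were named after their values were seen. Python 3.11.15, numpy 2.4.6, pandas 2.3.3, scipy 1.17.1 and matplotlib 3.10.9 were used for the rest, and DESeq2 1.42.0 and limma 3.58.1 for alternatives.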

Additional observations from a re-analysis of the deposited data

How the results depend on the processing

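The counts of genes called above and below the median gene were 912 and 1017 with DESeq2, 1041 and 1068 with limma on log2 odds (pseudocount 0.5), 998 and 1025 with conversions per covered T, 1090 and 1109 with TMM scaling, and 869 and 932 of 2724 genes without overlapping intervals. Without the library as a block, which pairs the T>C and other reads of a library, they were 1073 and 1116. Leaving out 1 library gave 920 to 974 above and 1037 to 1067 below. Centring on the share over all reads, to which ribosomal proteins contribute most, gave 2345 above and 404 below, so that every direction here is relative to the median gene. A minimum of 500 reads gave 658 and 692 of 1796 genes, with a median share of 3.69%, and a minimum of 1 read gave 1279 and 1794 of 6175, with 5.86%.

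As log2 ratios to the median gene, 34 of 38 class medians moved beyond the spread between libraries with a minimum of 500 reads, 18 of 38 with conversions per covered T, 18 of 35 in the middle range of genes by covered Ts and 9 of 38 without overlapping intervals. The values for the main classes and the widest moves follow. With a minimum of 500 reads, the small and large subunit of the ribosome gave -1.66 and -1.76, glycolysis -1.17, ribosome biogenesis 0.72, transcription factors 1.31, mRNA decay 0.92 (0.48 before) and exporters 2.11 (0.97 before), while proteasome subunits (0.11) and fatty acid and phospholipid synthesis (0.054) changed sign; the median gene itself was lower. Conversions per covered T gave -1.82 for glycolysis, 0.56 for ribosome biogenesis and 1.00 for transcription factors, and the middle range of genes by covered Ts gave -1.83 for glycolysis, 1.11 for transcription factors, 0.005 for Mediator, TFIID and the general factors (0.28 before), 0.20 for mRNA decay, -1.07 for nucleotide synthesis (-0.62 before) and 1.66 for exporters, of which 3 genes were left. The cell wall class, at -0.10, went to -0.42 with conversions per covered T and to 0.18 in the middle range of genes by covered Ts and with 500 reads. Without overlapping intervals ribosome biogenesis was at 0.40 and chaperones turned to -0.27. With that and at least 20 covered Ts per read, an alternative chosen after seeing the data, chaperones were at -0.28 and the large subunit at -2.24. STE3, one of the genes named as checks of well-known stable and short-lived messages, was not called. It had 93, 79 and 59 T>C reads among 1365, 1543 and 1193 reads in A, B and C. It stood at -0.037 with conversions per covered T and between -0.002 and 0.304 when 1 library was left out. Leaving out 1 library cannot shift the mean of 3 library values by more than their SD, so that setting could not show a move of a class median. The cause of the other shifts was not tested. Genes under 300 reads were called in 55.5% of cases and those with at least 1000 in 85.8%, so a gene of few reads that was not called may still differ.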

Other observations

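Of 24 genes for phosphate, iron and copper uptake 8 were called above and 8 below the median gene, near the 32.7% and 34.3% over all genes. FIT2 and FIT3, mannoproteins of the cell wall that hold iron carriers, had mean shares of 0.447% ± 0.107 and 1.44% ± 0.119 (SD, n = 3), whereas FRE1, a reductase of iron and copper, had 8.52% ± 0.530. MUP1, the methionine permease, stood at 16.6% ± 1.69, while SAH1, which recycles the methionine product S-adenosylhomocysteine, stood at 1.84% ± 0.357.

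Of 26 snoRNA intervals with 200 reads, 14 were called below and 8 above the median gene. That was 53.85% and 30.77%, against 34.3% and 32.7% over all genes. Mean shares ran from 0.339% ± 0.0747 for SNR40 to 16.1% for SNR83. Many of these intervals lie within or beside other genes (the one for SNR24 shares 339 bp with that of ASC1), and how their reads divide was not tested. SNR40 was read at 17.5 covered Ts per read, against a median of 35.5 over all members.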
